A study of Mus musculus with 217 samples.

Results

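Sirtuins are enzymes that use NAD to remove acetyl and other acyl groups from proteins. Mammals have 7 of them, encoded by Sirt1 to Sirt7, and resveratrol has been proposed to act through SIRT1. SIRT1, SIRT6 and SIRT7 are mostly nuclear, SIRT2 is mostly cytoplasmic, and SIRT3, SIRT4 and SIRT5 are mitochondrial. Here the 7 genes were taken by symbol from tables of 53619 genes, and all 7 were present and were tested in every comparison. In single mouse oocytes Sirt4 mRNA was the most abundant of the family per exon length, with 61.6% ± 3.48 (SD, n = 10 group sums) of the summed sirtuin level, whereas in granulosa cells it made up 17.6% ± 3.67 (SD, n = 18 pools). None of the 7 genes passed the adjusted threshold of edgeR with resveratrol, age or Tet2 genotype, and 6 of 105 tests had an unadjusted p under 0.05, beside 11% of all gene tests.

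The series holds 217 Smart-seq2 libraries, which amplify cDNA of polyadenylated RNA over its length. Single metaphase II oocytes of a C57BL6/129 background numbered 171, in 10 groups. At 2 months there were 15 Tet2 knockout and 18 wild-type oocytes, both from control mice. At 6 months there were 20 knockout resveratrol, 20 knockout control, 14 wild-type resveratrol and 20 wild-type control oocytes. At 10 months there were 15 knockout resveratrol, 15 knockout control, 14 wild-type resveratrol and 20 wild-type control oocytes. Pools of granulosa cells, the somatic cells around the oocyte, came from the same background in 6 groups of 3: old (10 months) labelled knockout with resveratrol, old labelled knockout control, young (2 months) labelled knockout, old wild type with resveratrol, old wild-type control and young wild type. C57BL6 mice gave 10 oocytes with resveratrol and 6 control oocytes at 10 months, and 11 control oocytes at 6 months. Resveratrol, a plant polyphenol, was given in drinking water at 30 mg per L from the age of 2 months, and control water held its solvent DMSO. All mice were primed with gonadotropin, so every oocyte had been matured by hormone injection. The labels name no animal, no Tet2 allele and no number of mice per group.

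Oocyte libraries held 3386039 to 8775154 counts and the 27 grouped C57BL6 libraries held 3470831 to 11358927. Of the 18 granulosa pools, 5 of the 6 young ones held 470647 to 749172 counts, and the other 13 pools held 5995491 to 20537935. Tet2 sums were 0.961 to 1.4 TMM-scaled counts per 1000000 (CPM) in the 5 knockout oocyte groups and 2.36 to 3.19 CPM in the 5 wild-type oocyte groups. In granulosa pools the group means of Tet2 were 11.8 to 15.7 CPM with the knockout label and 8.09 to 14.6 CPM in wild type, so these pools did not show lower Tet2 and are called labelled knockout. The 11 oocyte markers summed to 7600 to 31200 CPM in single oocytes, 1.45 to 6.34 CPM in old granulosa pools and 1.29 to 253 CPM in young pools. The 12 granulosa markers summed to 62.0 to 310 CPM in oocytes and 1150 to 5540 CPM in the pools. The pools also held 17 macrophage and leukocyte markers, which summed to 1300 to 1680 CPM in the 3 old labelled knockout control pools and 132 to 175 CPM in the 3 old wild-type control pools.

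The 7 genes lie on 5 chromosomes of GRCm38 (mm10), per the GENCODE vM21 annotation. Among the nuclear members, Sirt1 spans chr10:63319005-63381704 on the minus strand, Sirt6 spans chr10:81621785-81627797 on the minus strand and Sirt7 spans chr11:120618372-120625240 on the minus strand. Sirt2 spans chr7:28766735-28788661 on the plus strand. Among the mitochondrial members, Sirt3 spans chr7:140863666-140882309 on the minus strand, Sirt4 spans chr5:115478010-115484725 on the minus strand and Sirt5 spans chr13:43365496-43395203 on the plus strand. All 7 are annotated as protein-coding. Exons of Sirt1, Sirt2, Sirt3 and Sirt7 overlap exons of other genes (Gm16145, Nfkbib, Psmd13 with Ric8a, and Mafg with Mir6936). Mafg and Mir6936 lie on the same strand as Sirt7, so no strand setting could separate reads there. The overlaps of Sirt1, Sirt2 and Sirt3 are with genes of the opposite strand. No source used here states if counting respected strand, so reads in those overlaps cannot be told apart either. Sirt4, Sirt5 and Sirt6 have no such overlap.

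Promoter windows of 300 bases (250 before and 50 after the start, GRCm38.p6, from RefSeq) were found for all 7 genes. They are shown for Sirt4, which led the family in oocytes, for Sirt2, whose share of the family differed widely between the cell types, and for Sirt1, the member proposed as the resveratrol target. Each is written 5′ to 3′ on the strand of its gene, with CpG dinucleotides, the sites of DNA methylation, in capitals. The windows are chr5:115484248-115484547 (minus) for Sirt4, chr7:28766502-28766801 (plus) for Sirt2 and chr10:63338986-63339285 (minus) for Sirt1.
Sirt4: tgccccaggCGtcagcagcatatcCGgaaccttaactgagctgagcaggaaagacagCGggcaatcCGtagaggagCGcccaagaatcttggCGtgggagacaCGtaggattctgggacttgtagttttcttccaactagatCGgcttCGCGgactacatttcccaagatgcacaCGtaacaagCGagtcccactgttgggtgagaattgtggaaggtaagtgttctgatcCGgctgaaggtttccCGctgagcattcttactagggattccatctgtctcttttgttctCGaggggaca
Sirt2: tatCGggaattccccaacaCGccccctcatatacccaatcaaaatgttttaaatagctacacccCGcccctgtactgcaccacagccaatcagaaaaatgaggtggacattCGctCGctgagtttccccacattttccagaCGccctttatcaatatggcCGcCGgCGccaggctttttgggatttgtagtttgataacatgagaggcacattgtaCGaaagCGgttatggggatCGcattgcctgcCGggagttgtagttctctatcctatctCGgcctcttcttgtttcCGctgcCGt
Sirt1: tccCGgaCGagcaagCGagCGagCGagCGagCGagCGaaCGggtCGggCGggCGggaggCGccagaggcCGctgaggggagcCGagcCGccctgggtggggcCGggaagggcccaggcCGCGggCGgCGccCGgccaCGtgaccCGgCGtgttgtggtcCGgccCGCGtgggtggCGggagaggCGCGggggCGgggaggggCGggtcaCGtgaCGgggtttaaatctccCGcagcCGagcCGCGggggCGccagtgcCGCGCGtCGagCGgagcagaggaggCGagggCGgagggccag

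The Sirt1 window held 47 CpG dinucleotides, the Sirt2 window 16 and the Sirt4 window 15, against a median of 7 over 32851 promoter windows. The other members' windows held 15 to 24. G and C made up 79.0% of the Sirt1 window, 50.0% of the Sirt2 window and 52.0% of the Sirt4 window. The 4 motifs below were searched on both strands, namely the E-box CACGTG, the GC box GGGCGG, the CCAAT box CCAAT and the TATA box TATAAA. Sirt1 had 2 E-boxes and 7 GC boxes, and E-boxes stood in 7.15% and GC boxes in 35.7% of all windows. Sirt2 had 1 GC box and 2 CCAAT boxes, the second of which stood in 37.4% of all windows. Sirt4 had none of the 4 motifs, and none of the 7 genes had a TATA box, which stood in 13.6% of all windows. These matches describe letters in the windows and no binding was measured.

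Levels of different genes were compared as CPM per kb of exon, so that long genes do not count for more. In the 10 oocyte group sums Sirt4 had a median of 16.9 CPM per kb (13.4 to 19.6). SIRT4 is a mitochondrial enzyme known for ADP-ribosylation of glutamate dehydrogenase. Sirt6, a chromatin-bound deacetylase linked to DNA repair, followed with a median of 5.08 CPM per kb (4.60 to 5.97). Sirt1, a deacetylase of p53 and FOXO factors, had a median of 2.31 CPM per kb (1.73 to 3.04), and Sirt7, a nucleolar enzyme tied to ribosomal RNA transcription, had 1.71 CPM per kb (1.47 to 2.33). The ranges of Sirt4 and Sirt6 stood apart from each other and from the rest, whereas those of Sirt1 and Sirt7 overlapped.

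The ranges of the 3 lowest members in oocytes overlapped. Sirt5, a mitochondrial desuccinylase, had a median of 0.365 CPM per kb (0.277 to 0.487). Sirt3, the main mitochondrial deacetylase, had 0.364 CPM per kb (0.236 to 0.501). Sirt2, a deacetylase of tubulin and of the spindle checkpoint kinase BUBR1, had 0.256 CPM per kb (0.129 to 0.404). Among single oocytes, Sirt2 was at 0 counts in 14 of 171, Sirt3 in 3 and Sirt5 in 1. The other 4 members had counts in all 171 oocytes, from 10 to 180 counts for Sirt1 and from 72 to 361 for Sirt4.

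The family had a different order in granulosa cells. Sirt6 was highest with a median of 12.4 CPM per kb (5.92 to 25.9) over 18 pools, followed by Sirt2 with 8.94 (3.51 to 11.5), Sirt4 with 7.33 (3.51 to 11.1) and Sirt7 with 6.34 (4.57 to 8.41). Sirt3 had 3.31 CPM per kb (2.09 to 4.99), Sirt1 2.08 (0.375 to 4.9) and Sirt5 1.38 (0.438 to 2.8). Each neighbouring pair in this order overlapped in range. The order also depends on the length used, here the union of exons. That union is 5035 bases for Sirt2 and 2785 for Sirt6, whereas their longest transcripts have 2117 and 1891 bases. With the longest transcript as length, the median of Sirt2 would lie above that of Sirt6, and other neighbours would change places too.

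**Figure D1:**
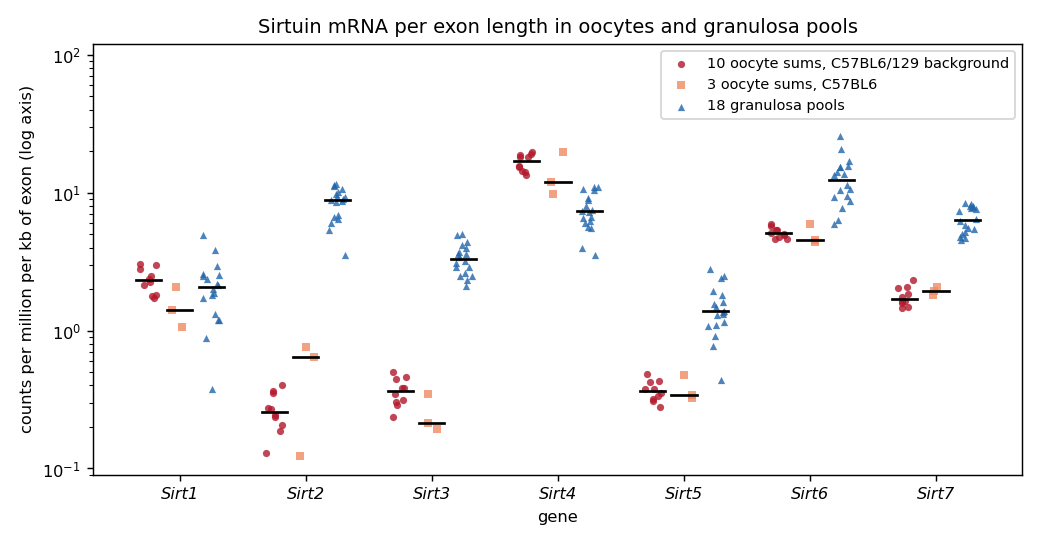
Level of each sirtuin (x axis) in CPM per kb of exon (log axis) in 10 oocyte sums of the C57BL6/129 background, 3 C57BL6 oocyte sums and 18 granulosa pools; each point is a sum or pool and each bar a median. Sirt4 is the highest gene in both sets of oocyte sums, at 16.9 CPM per kb by the median of the 10, and Sirt6 has the highest median in granulosa pools, at 12.4. Length is the union of exons, and the granulosa order depends on it.

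A library's share of each member in the summed sirtuin level per kb does not depend on how the 2 kinds of library are scaled to each other. Sirt4 made up 56.4% to 66.7% of the family in the oocyte sums and 11.8% to 24.5% in the granulosa pools, a mean difference of 44.1 percentage points. Sirt2 made up 0.993% ± 0.312 (SD, n = 10) in oocyte sums and 20% ± 3.41 (SD, n = 18) in granulosa pools. Sirt3 made up 1.36% ± 0.272 in oocyte sums and 8.22% ± 2.33 in granulosa pools. Sirt7 made up 6.69% ± 1.31 in oocyte sums and 15.6% ± 3.33 in granulosa pools. For these 4 genes the oocyte sums and the pools did not overlap. No value over all genes stands beside this or the tests below, so neither is shown to be particular to sirtuins.

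Mean shares were compared by a two-sided permutation test with 100000 resamples, Benjamini-Hochberg adjusted over the 7 genes. This comparison was added after the files were seen. Sums of many oocytes and single pools, 3 per group with no animal named, are not alike independent units. The permutation p-values may therefore be too small. Sirt2, Sirt3, Sirt4, Sirt6 and Sirt7 each gave a permutation p of 2e-05, the smallest these resamples can give, and 2.8e-05 after adjustment. Sirt6 made up 19.3% ± 2.67 in oocyte sums and 29.5% ± 7.27 in granulosa pools, with overlapping ranges. Sirt5 made up 1.37% ± 0.222 in oocyte sums and 3.58% ± 1.33 in granulosa pools (adjusted permutation p = 4.7e-05). Sirt1 made up 8.67% ± 1.54 in oocyte sums and 5.53% ± 3.69 in granulosa pools (adjusted permutation p = 0.019). Without the 5 pools under 1000000 counts, the Sirt1 difference was 2.0 percentage points and its adjusted permutation p was 0.13, whereas the other 6 genes stayed past 0.05. The 3 C57BL6 oocyte sums had 50.4% to 66.2% Sirt4 and 0.416% to 3.62% Sirt2. Shares of one total are tied to each other, so a larger Sirt4 share lowers the others. When Sirt4 was left out of the total, a check added after the values were seen, Sirt6 turned, with 50.2% ± 4.09 in oocyte sums and 35.8% ± 8.61 in granulosa pools (permutation p = 0.00012 adjusted over 6 genes). Sirt7 then had 17.3% ± 2.23 in oocyte sums and 18.9% ± 3.68 in granulosa pools (adjusted permutation p = 0.22), and Sirt5 also missed the threshold (adjusted permutation p = 0.21). Sirt2 had 2.6% ± 0.844 in oocyte sums and 24.2% ± 3.85 in granulosa pools, Sirt3 3.54% ± 0.717 in oocyte sums and 9.95% ± 2.73 in granulosa pools, and Sirt1 22.8% ± 4.53 in oocyte sums and 6.74% ± 4.57 in granulosa pools (adjusted permutation p = 4e-05 for each). Sirt1, Sirt2 and Sirt3 kept their direction and passed with both totals, Sirt6 changed direction, and Sirt5 and Sirt7 no longer passed. Oocyte libraries hold 1 cell and granulosa libraries a pool, so cell type and library input cannot be told apart, and fewer cells of a type and less RNA per cell cannot be told apart in the pools.

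The 11 zinc-dependent deacetylases, Hdac1 to Hdac11, remove acetyl groups without NAD. In the oocyte sums Hdac2 was the highest of them, with a median of 10.8 CPM per kb (6.42 to 15), below the median of Sirt4. In granulosa pools Hdac3 had a median of 18.3 (14.5 to 27.7) and Hdac1 14.6 (10.8 to 21.5), both above the median of every sirtuin. These orders too hold for the union of exons as length. None of the 11 genes passed the adjusted threshold of edgeR in any of the 15 tested comparisons, in which 9 (oocyte sums) or 11 (granulosa pools) were tested and 0 to 3 per comparison had an unadjusted p under 0.05, beside 11% of all gene tests.

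Resveratrol was the treatment for which sirtuins are a proposed target. In oocyte sums, the values below are TMM-scaled CPM, a scale that corrects library totals for composition, and every fold is log2 of resveratrol over control. Sirt1 had 13.6 CPM in old knockout resveratrol oocytes and 11.6 in old knockout controls, and 14.5 in 6-month knockout resveratrol oocytes and 15.1 in their controls. In wild type it had 9.02 CPM in old resveratrol oocytes and 12.4 in old controls, and 9.81 in 6-month resveratrol oocytes and 12.9 in their controls. Sirt1 was therefore lower in 3 of 4 strata, with a fitted log2 fold change of -0.15 (95% interval -0.67 to 0.36, adjusted p = 0.9998).

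Sirt2 had 1.23 CPM in old knockout resveratrol oocytes and 1.06 in old knockout controls, and 1.35 in 6-month knockout resveratrol oocytes and 1.89 in their controls. In wild type it had 1.72 CPM in old resveratrol oocytes and 0.971 in old controls, and 1.83 in 6-month resveratrol oocytes and 1.24 in their controls. It was higher in 3 of 4 strata, with a log2 fold change of 0.29 (-0.36 to 0.95). Over single sums left out it ranged from 0.08 (without old wild-type resveratrol) to 0.51 (without 6-month knockout resveratrol), and that of Sirt1 from -0.29 (without old knockout resveratrol) to -0.02 (without 6-month wild-type resveratrol). Sirt3 had -0.19 (-0.73 to 0.34) and was lower in 2 of 4 strata. The other 4 members had folds of -0.05 to 0.05, and the widest of their intervals was that of Sirt5, from -0.37 to 0.48. The adjusted p of all 7 was 0.9998, beside a background of 0.0% of 20806 genes called by edgeR and 362 at an unadjusted p under 0.05, which were 1.74% of the genes. DESeq2 also called 0 genes.

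The test of whether resveratrol acted differently in the genotypes gave the lowest unadjusted values for Sirt1 and Sirt2. The fitted interaction, knockout minus wild type, was 0.83 for Sirt1 (0.02 to 1.63, unadjusted p = 0.0449) and -1.04 for Sirt2 (-2.03 to -0.04, unadjusted p = 0.0428). Both had an adjusted p of 1 by edgeR. Of the 20806 genes 0 passed, 2.57% had an unadjusted p under 0.05, and DESeq2 called 11 genes, neither of these 2 among them. The model had no age by genotype term, so the 2-month sums, which had no resveratrol, also entered the fitted interactions. In those sums the log2 ratio of knockout over wild type was -0.90 for Sirt1 and 0.95 for Sirt2. Without the 2-month wild-type sum the Sirt1 interaction was 0.51, and it was also 0.51 without the 2-month knockout sum. In both wild-type strata Sirt1 was lower and Sirt2 higher with resveratrol, and the knockout strata had folds of both signs for each gene.

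In old wild-type granulosa cells, Sirt2 had 29.3, 46.9 and 37.0 CPM in the 3 resveratrol pools and 52.6, 49.2 and 52.5 CPM in the 3 control pools. Sirt7 had 25.7, 26.5 and 30.0 CPM with resveratrol and 35.1, 35.8 and 37.8 CPM in controls. For both genes every resveratrol pool was below every control pool, as was the case for 13% of all 17558 genes. The log2 fold changes were -0.45 for Sirt2 (-1.01 to 0.11, adjusted p = 0.43) and -0.41 for Sirt7 (-0.89 to 0.08, adjusted p = 0.409). With libraries thinned to one total they were -0.85 for Sirt2 (adjusted p = 0.284) and -0.96 for Sirt7 (adjusted p = 0.205). Without the second resveratrol pool the Sirt2 fold was -0.70. Thinning here and below was 1 random draw to the lowest pool total, 470647 counts. Thinned folds therefore also hold sampling noise, and their shifts cannot be read as an effect of depth.

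Sirt1 had 14.7, 16.7 and 9.76 CPM in the old wild-type resveratrol pools and 10.7, 12 and 6.44 CPM in the control pools. The groups overlapped, and the log2 fold change was 0.50 (-0.29 to 1.3, adjusted p = 0.565). It was 0.26 without the second resveratrol pool and 0.25 without the third control pool. Sirt5 had 9.90, 8.95 and 5.94 CPM with resveratrol and 8.85, 13.3 and 14.0 CPM in controls, a log2 fold change of -0.55 (-1.3 to 0.19, adjusted p = 0.474). Sirt3, Sirt4 and Sirt6 had log2 folds of -0.02, 0.17 and 0.16. No sirtuin was called beside 1.62% of all genes.

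In old granulosa cells labelled knockout, Sirt1 had 11, 12.6 and 13.8 CPM in the resveratrol pools and 26.9, 12.2 and 6.70 CPM in the control pools. The control pools spread over a wider range than the resveratrol pools on both sides. The log2 fold change was -0.28 (-1.07 to 0.50, adjusted p = 1), and it was 0.41 without the first control pool, -0.65 without the third and 0.40 with all libraries thinned to one total. Sirt3 had 22.8, 15 and 17.2 CPM with resveratrol and 18.9, 20.1 and 27.7 CPM in controls, a log2 fold change of -0.28 (-0.79 to 0.23). It was -0.73 with thinned libraries, -0.46 and -0.14 without the first and the second resveratrol pool, and -0.09 without the third control pool. The other 5 members had folds of -0.17 to 0.11, and 0.0285% of all genes were called. The treatment by label interaction called 0.159% of all genes and 0 of the 7, with folds of -0.79 for Sirt1 (-1.9 to 0.33) to 0.56 for Sirt2 (-0.23 to 1.34).

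**Figure D2:**
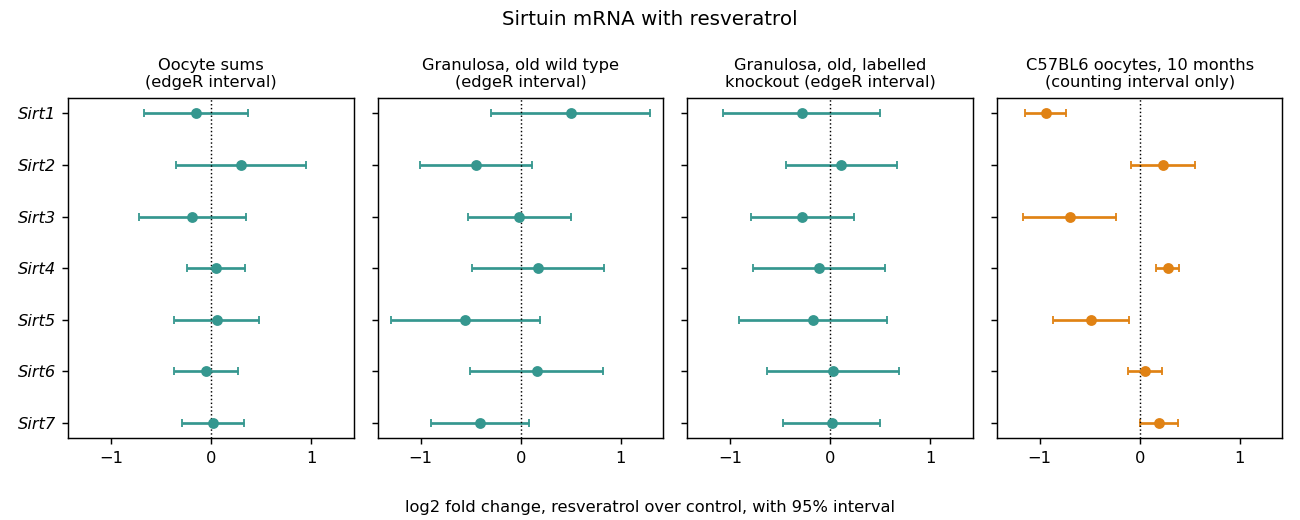
Log2 fold change of each sirtuin, resveratrol over control (x axis, with 95% interval), in oocyte sums, old wild-type granulosa pools, old granulosa pools labelled knockout and C57BL6 oocytes at 10 months. All edgeR intervals hold 0; the C57BL6 intervals cover counting error only, and Sirt1 lies at -0.94 there.

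C57BL6 oocytes gave 1 sum per group, so these values have no test, and the intervals below cover counting error and not the spread between mice. Sirt1 had 2.09 to 9.5 CPM (median 5.36) in 10 resveratrol oocytes and 8.47 to 12.3 CPM (median 10.9) in 6 control oocytes at 10 months. Of the 10 resveratrol oocytes, 8 lay below every control oocyte. The sums had 5.71 CPM with resveratrol and 11 CPM in controls, a log2 ratio of -0.94 (-1.15 to -0.74).

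Sirt3 had 0.319 to 2.59 CPM (median 1.13) in the resveratrol oocytes and 1.55 to 3.02 CPM (median 1.87) in the controls, with a log2 ratio of -0.70 (-1.17 to -0.23). Sirt5 had a log2 ratio of -0.49 (-0.87 to -0.11). Sirt4 had 23.6 to 35.7 CPM (median 28.2) with resveratrol and 17.5 to 33.0 CPM (median 22.3) in controls, a log2 ratio of 0.28 (0.17 to 0.40). Sirt2, Sirt6 and Sirt7 had ratios of 0.23, 0.05 and 0.19, and with each oocyte left out in turn that of Sirt2 lay between 0.11 and 0.38 and that of Sirt6 between -0.06 and 0.15. Sirt1 and Sirt3 were thus past 1.5-fold lower, as were 6.07% of the 13962 genes at 1 CPM or more. With each oocyte left out in turn the Sirt1 ratio lay between -1.07 and -0.83, while that of Sirt3 lay between -0.86 and -0.53.

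**Figure D3:**
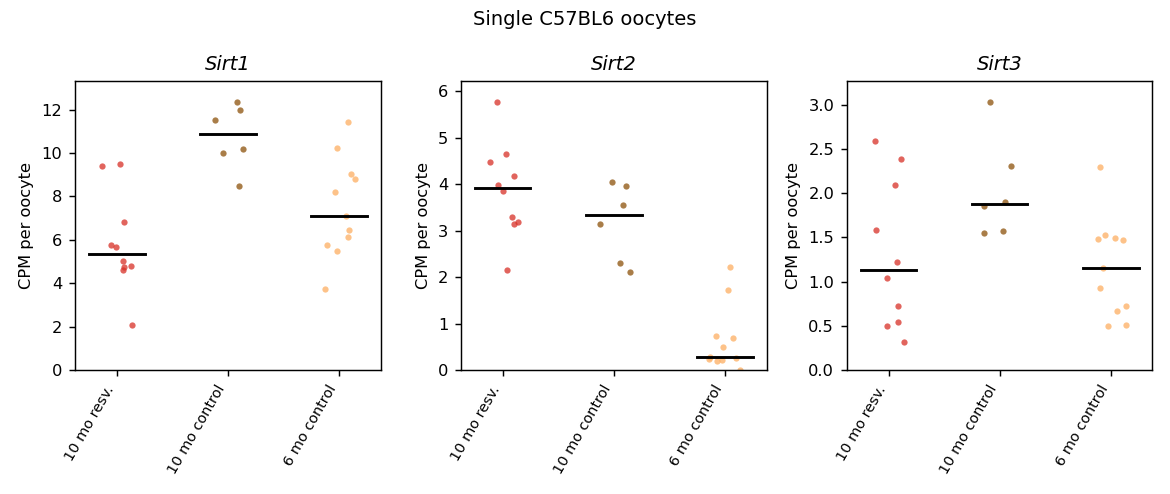
CPM (y axis) of Sirt1, Sirt2 and Sirt3 in single C57BL6 oocytes of 10 months with resveratrol, 10 months control and 6 months control; points are oocytes and bars medians. For Sirt1 the resveratrol oocytes have a median of 5.36 CPM and the 10-month controls 10.9; for Sirt2 the 6-month controls have a median of 0.288 CPM.

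Age was compared over 2, 6 and 10 months in oocytes. Sirt4 had sums of 36.8 (knockout) and 47.0 CPM (wild type) at 2 months. At 6 months it had 45.7 (knockout resveratrol), 40.5 (knockout control), 46.6 (wild-type resveratrol) and 46.7 CPM (wild-type control). At 10 months it had 37.5 (knockout resveratrol), 35.4 (knockout control), 31.7 (wild-type resveratrol) and 33.1 CPM (wild-type control). Every 10-month sum was below every 6-month sum, as were those of 4.12% of all genes, and of the 2-month sums one lay within the 10-month range and the other above every other sum.

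The log2 fold change of Sirt4 at 10 over 6 months was -0.38 (-0.67 to -0.09, unadjusted p = 0.0163, adjusted p = 0.207), and it lay between -0.56 and -0.19 in the 4 strata. It did not pass the threshold, which 1 of 20806 genes passed in edgeR (0.00481%), whereas DESeq2 called 887 genes, with an adjusted p of 0.0909 for Sirt4. Oocytes were also summed by group and by the first number of their column header, whose meaning is not given. The fold was then -0.36 and the adjusted p 0.0113, with 2846 genes called. These sums hold 1 to 12 oocytes, and parts of 1 group may not be independent, so their p-values may be too small. They overlapped between ages, with 29.14 to 37.78 CPM (no TMM) at 10 months and 37.32 to 50.95 CPM at 6 months. At 10 over 2 months the Sirt4 fold over the 10 group sums was -0.30 (-0.69 to 0.08, adjusted p = 0.483). It was -0.13 without the 2-month wild-type sum and -0.49 without the 2-month knockout sum. DESeq2 called 646 genes and 0 sirtuins in that comparison.

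C57BL6 oocytes had 17.5 to 33.0 CPM of Sirt4 (median 22.3) in 6 control oocytes at 10 months and 33.8 to 84.7 CPM (median 41.4) in 11 control oocytes at 6 months. The 2 groups did not overlap, as was the case in this direction for 2.01% of 13806 genes. The sums had 23.7 CPM at 10 months and 47.0 CPM at 6 months, a log2 ratio of -0.99 (-1.10 to -0.88, counting error only), while the median gene had 0.10. Resveratrol oocytes of 10 months had 23.6 to 35.7 CPM, a range that overlapped that of the 6-month controls.

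**Figure D4:**
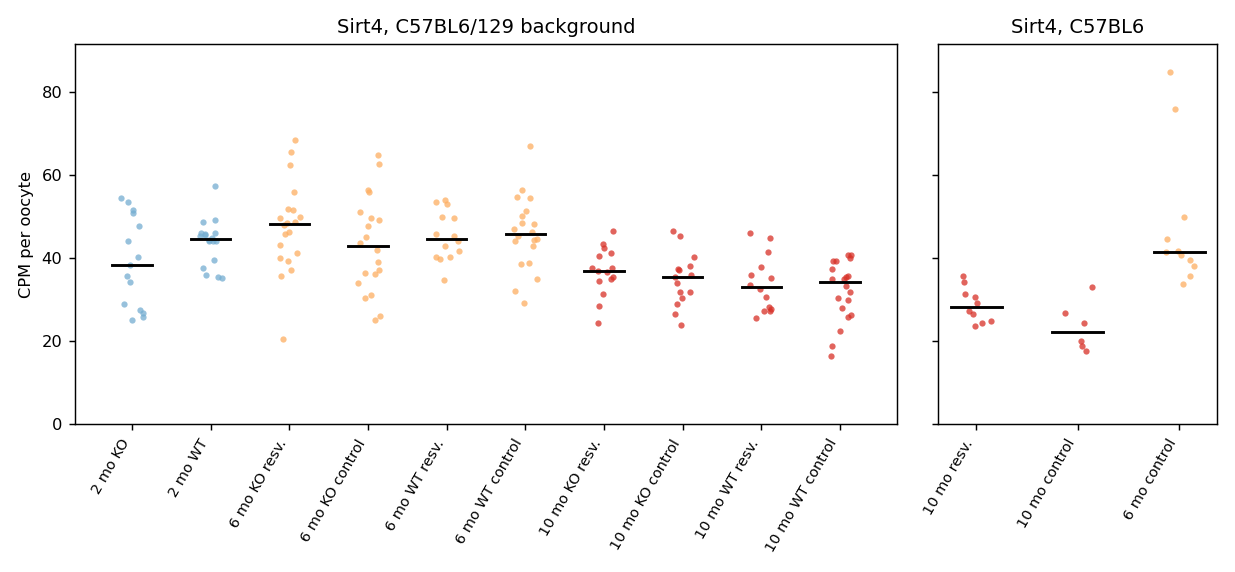
Sirt4 CPM (y axis) in single oocytes by age, genotype and treatment, with the C57BL6/129 background in the left panel and C57BL6 in the right; points are oocytes and bars medians, KO means knockout, WT wild type and resv. resveratrol. The 4 groups of 10 months have medians of 33.0 to 36.9 CPM and the 4 groups of 6 months 42.8 to 48.3; the C57BL6 controls have medians of 22.3 CPM at 10 months and 41.4 at 6 months.

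Sirt7 had 11.8 (knockout) and 11.3 CPM (wild type) in the sums of 2 months. At 6 months it had 8.29 (knockout resveratrol), 8.44 (knockout control), 7.78 (wild-type resveratrol) and 7.76 CPM (wild-type control). At 10 months it had 8.64 (knockout resveratrol), 8.24 (knockout control), 9.92 (wild-type resveratrol) and 9.78 CPM (wild-type control). Both older ages were below both 2-month sums, and 7.79% of all genes were lower without overlap at 6 months and 10.6% at 10 months. The sums by header number did overlap. They had 8.315 to 14.24 CPM (no TMM) at 2 months, 6.615 to 10.61 at 6 months and 6.966 to 10.83 at 10 months. At 6 over 2 months 0.0% of all genes passed in edgeR, 9.16% had an unadjusted p under 0.05, and DESeq2 called 129 genes and 0 sirtuins. The log2 fold change of Sirt7 was -0.53 (-0.93 to -0.12, unadjusted p = 0.0159, adjusted p = 0.502). With sums by header number it was -0.49 with an adjusted p of 0.0478 and 629 genes called. That p-value may be too small too, since parts of 1 group may not be independent. At 10 over 2 months the Sirt7 fold over the group sums was -0.35 (-0.76 to 0.06, adjusted p = 0.44).

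The other members had adjusted p-values of 0.493 to 1 in the 3 age comparisons of oocyte sums. Sirt1, Sirt2 and Sirt5 were lower at 10 than at 6 months in 4 of 4 strata, with fitted log2 folds of -0.16, -0.36 and -0.28. In C57BL6 control oocytes Sirt2 was higher at the older age, with 2.1 to 4.05 CPM (median 3.35) at 10 months and 0.00 to 2.22 CPM (median 0.288) at 6 months. Its sums had 3.26 CPM at 10 months and 0.619 CPM at 6 months, from 128 and 28 counts, a log2 ratio of 2.38 (1.8 to 3.04), and 5 of the 6 older oocytes lay above every 6-month oocyte. The difference between the strains was not tested. Sirt3 had a log2 ratio of 0.84 (0.32 to 1.37) there, Sirt5 0.56, Sirt1 0.54, Sirt7 -0.11 and Sirt6 -0.45. Past 1.5-fold higher were 22.4% and past 1.5-fold lower 10.9% of the genes in this comparison, so 2 of the 7 members were past it upward and 1 downward.

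In granulosa cells, age was compared between old controls and young pools of each genotype label. Sirt3 had 23.1, 21.7 and 27.4 CPM in old wild-type pools and 12.2, 14.2 and 13.3 CPM in young wild-type pools. The groups did not overlap, as was so for 23.8% of all genes in this direction. The log2 fold change was 0.88 (0.15 to 1.6, unadjusted p = 0.02, adjusted p = 0.214), and with libraries thinned to one total it was 0.28 (adjusted p = 0.803). The young values rest on 8, 7 and 7 counts.

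Sirt1 had 10.7, 12 and 6.44 CPM in old wild-type pools and 4.56, 6.07 and 1.89 CPM in young wild-type pools, from 3, 3 and 1 counts in the young pools. Its log2 fold change was 1.22 (-0.18 to 2.61, adjusted p = 0.388). Sirt5 had 8.85, 13.3 and 14.0 CPM in old pools and 4.56, 8.10 and 7.57 CPM in young pools, a log2 fold change of 0.88 (-0.23 to 1.99, adjusted p = 0.434). For Sirt1 and Sirt5, as for Sirt3, old and young pools did not overlap, beside 23.8% of all genes in this direction. Sirt6 had 27.0, 27.1 and 43.2 CPM in old pools and 42.5, 68.8 and 54.9 CPM in young pools, a log2 fold change of -0.76 (-1.52 to 0.01, adjusted p = 0.32) that was -1.28 with thinned libraries (adjusted p = 0.0756). Sirt2, Sirt4 and Sirt7 had folds of -0.29 to 0.19. The comparison called 1.53% of all genes and no sirtuin, and all 3 young wild-type pools were shallow.

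With the knockout label the 7 log2 folds of old control over young pools lay between -0.55 (Sirt4) and 0.24 (Sirt3), with adjusted p-values of 0.415 to 0.965, beside 5.17% of all genes called. Oocyte markers were also lower in old than in young pools of both labels, with 4 of 8 tested genes called in each. Of 16 tested macrophage and leukocyte markers 7 were called higher in old pools with the knockout label, where the list summed to 1300 to 1680 CPM in old control pools and 45.7 to 882 CPM in young pools. In wild type 0 of them were called by edgeR and 3 had an unadjusted p under 0.05, with 132 to 175 CPM in old control pools and 78.1 to 95.9 CPM in young pools. The part of these markers in the sirtuin values was not tested. The age by label interaction called 0.137% of all genes and 0 sirtuins, and its lowest unadjusted p was 0.0863, for Sirt5.

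**Figure D5:**
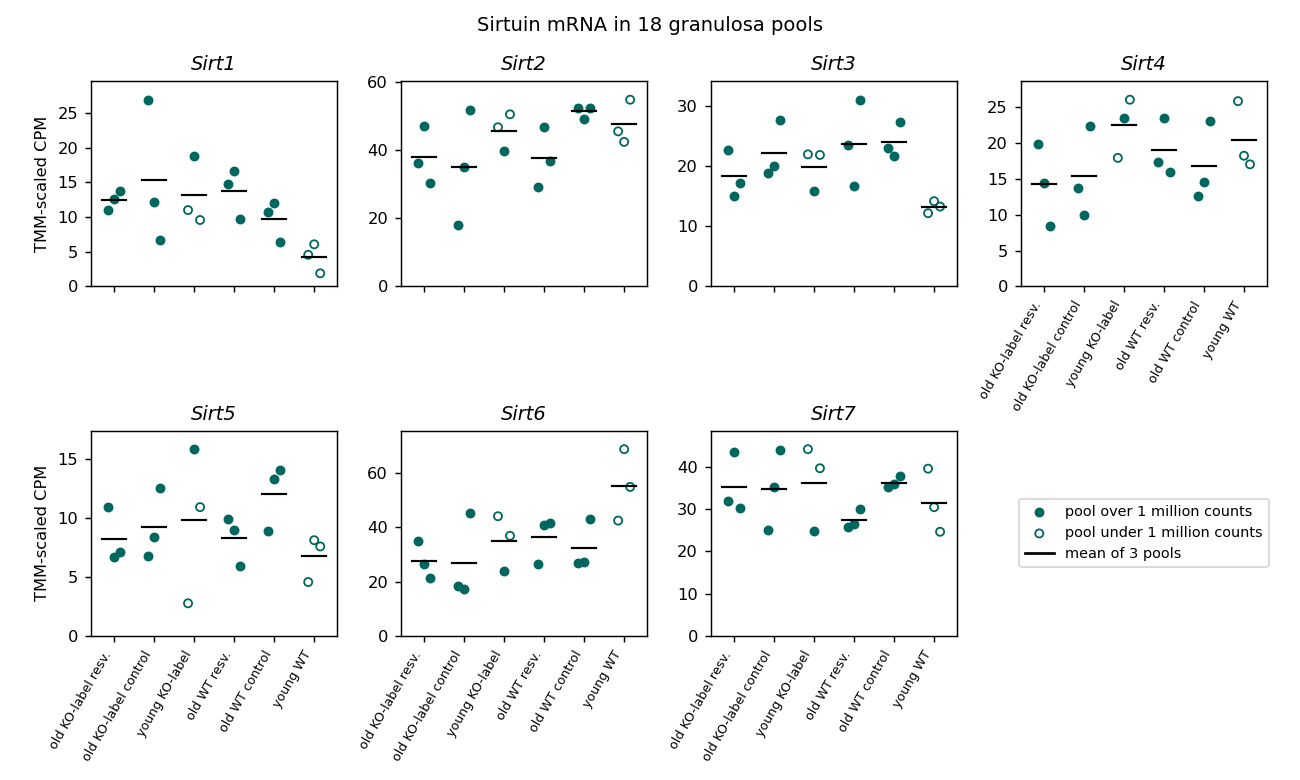
TMM-scaled CPM (y axis) of each sirtuin in the 18 granulosa pools by group, where KO-label means labelled knockout, WT wild type and resv. resveratrol; open points are the 5 pools under 1000000 counts and bars are means of 3 pools. Sirt2 has 29.3 to 46.9 CPM in old wild-type resveratrol pools and 49.2 to 52.6 in their controls, and Sirt1 has 1.89 to 6.07 CPM in the young wild-type pools.

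Tet2 knockout oocytes were compared with wild-type oocytes in the additive model. The 7 log2 folds lay between -0.27 and 0.15, with adjusted p-values of 0.541 to 0.932, and 0.139% of all genes were called. Sirt5 had the lowest of these folds, -0.27 (-0.65 to 0.11), and was lower in 4 of 5 strata.

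Among young granulosa pools, Sirt1 had 11, 18.8 and 9.57 CPM with the knockout label and 4.56, 6.07 and 1.89 CPM in wild type. Every labelled knockout pool was above every wild-type pool, as for 5.47% of all genes. The log2 fold change was 1.81 (0.41 to 3.22, unadjusted p = 0.0138, adjusted p = 0.34), and 0.114% of all genes were called. Sirt1 counts were 8, 236 and 7 in these labelled knockout pools and 3, 3 and 1 in the wild-type pools. Sirt3 was also higher without overlap, with a log2 fold change of 0.52 (-0.26 to 1.31, adjusted p = 0.628). The remaining members overlapped, with folds of -0.75 (Sirt6) to 0.80 (Sirt5).

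Among old control pools, Sirt2 had 18.2, 35.2 and 52.0 CPM with the knockout label and 52.6, 49.2 and 52.5 CPM in wild type. The third labelled knockout pool lay within the wild-type range and the other 2 below it. The log2 fold change was -0.54 (-1.10 to 0.01, adjusted p = 0.299), and without the third labelled knockout pool it was -1.01 with an adjusted p of 0.0311. Without the first labelled knockout pool it was -0.25, and with thinned libraries -0.35. Sirt1 in the same pools had a log2 fold change of 0.65 (-0.14 to 1.44), which was -0.06 without the first labelled knockout pool and 0.40 without the third wild-type pool. No sirtuin was called beside 3.86% of all genes. The macrophage and leukocyte markers were higher in these labelled knockout pools, with 13 of 16 tested genes called, and their part in the sirtuin values was not tested.

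Among old resveratrol pools, Sirt7 had 31.9, 43.4 and 30.1 CPM with the knockout label and 25.7, 26.5 and 30.0 CPM in wild type. The lowest labelled knockout pool was just above the highest wild-type pool, 10.5% of all genes were higher without overlap, and the log2 fold change was 0.36 (-0.13 to 0.85, adjusted p = 0.679). It was 0.18 without the second labelled knockout pool and 0.68 with thinned libraries. The other 6 members had folds of -0.41 to 0.01, and 1.07% of all genes were called. These comparisons share control pools with those of resveratrol and of age.

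Over all 15 tested comparisons, 6 of the 105 sirtuin tests had an unadjusted p under 0.05, as did 11% of all gene tests, and 0 passed the adjusted threshold of edgeR. Genes around the sirtuins were read from 8 lists: NAD synthesis, NAD consumers, SIRT1 regulators, AMP-activated kinase, other proposed resveratrol targets, and nuclear, cytoplasmic and mitochondrial sirtuin substrates. With resveratrol in oocyte sums, 0 of the genes of any list passed, and the list medians lay between -0.09 and 0.06 on the log2 scale beside -0.01 for all genes. In old granulosa pools labelled knockout 0 passed as well. Over the 120 pairs of a list and a comparison, 115 had no called gene.

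Sod2, the mitochondrial superoxide dismutase that SIRT3 deacetylates, was the only member of the 8 lists called with resveratrol. It had 173, 174 and 153 CPM in old wild-type resveratrol pools and 89.6, 91.8 and 100 CPM in the controls. Its log2 fold change was 0.83 (0.43 to 1.23, adjusted p = 0.0376). Of 21 tested mitochondrial substrates 1 rose and 0 fell, beside 1.62% of all genes called, with a list median of -0.14 beside 0.01 for all genes. The call did not hold without any 1 of the 6 pools, at folds of 0.72 to 0.86. In the same pools 6 of 16 macrophage and leukocyte markers were called higher and 1 lower, and the list summed to 217 to 376 CPM in resveratrol pools and 132 to 175 CPM in controls, and their part in the Sod2 value was not tested.

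Sod2 also rose with the knockout label among old controls, with 153, 157 and 166 CPM in labelled knockout pools against the same wild-type controls, a log2 fold change of 0.76 (0.36 to 1.16, adjusted p = 0.0277). That call too was lost without any 1 of the 6 pools. Bst1, which encodes an NAD-consuming ectoenzyme of leukocytes and stroma, had 54, 78 and 47 counts in labelled knockout control pools and 1, 5 and 2 counts in wild-type control pools (log2 fold change 4.56, adjusted p = 0.0122). Its adjusted p was 0.0654 to 0.073 without any 1 of the wild-type pools or without the second labelled knockout pool. Cd38, the related NAD glycohydrolase of immune cells, had 52, 121 and 262 counts in labelled knockout resveratrol pools and 5, 0 and 0 counts in wild-type resveratrol pools (log2 fold change 6.09, adjusted p = 0.00327). That fold rests on few wild-type counts and was 9.61 without the first wild-type pool, with adjusted p-values of 0.00129 to 0.0292 over single pools left out. Each was 1 of 10 tested NAD consumers called in its comparison, beside 3.86% of all genes among old controls and 1.07% among old resveratrol pools. Of 16 tested macrophage and leukocyte markers, 13 were called higher among the old controls and 3 among the old resveratrol pools, where the list summed to 386 to 903 CPM with the knockout label and 217 to 376 CPM in wild type. Their part in the values of Bst1, Cd38 and Sod2 was not tested.

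Bub1b, which encodes the checkpoint kinase BUBR1 that SIRT2 stabilises, had 15.6, 8.34 and 20.5 CPM in old labelled knockout control pools and 23.4, 31.6 and 57.4 CPM in young labelled knockout pools. Its log2 fold change was -1.29 (-2.05 to -0.54, adjusted p = 0.0388), with 1 of 13 tested cytoplasmic substrates called beside 5.17% of all genes. In the same comparison 7 of 16 macrophage and leukocyte markers were called higher, 4 of 8 oocyte markers lower, and of 12 granulosa markers 1 higher and 2 lower, and their part in the Bub1b value was not tested. Without the pools under 1000000 counts the fold was -1.17 with an adjusted p of 0.114. It was -1.01 without the third young pool (adjusted p = 0.165), -1.35 without the first old pool (adjusted p = 0.0956) and -1.04 without the second (adjusted p = 0.155).

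For each sirtuin, the genes with the most similar pattern were found by Pearson's r of log2(CPM + 1) among genes at a mean of 10 CPM or more, as a description with no test. Over the 10 oocyte sums, Sirt4 was most like Plat (r = 0.937), which encodes tissue plasminogen activator, and Rdh12 (r = 0.933). Sirt1 was most like Fchsd2 (r = 0.933) and Ipo11 (r = 0.918), Sirt6 like Gtse1 (r = 0.942), Sirt7 like Rnf214 (r = 0.944), Sirt2 like Pcnt (r = 0.922), Sirt3 like Riok1 (r = 0.927) and Sirt5 like Hars (r = 0.957). Over the 18 granulosa pools, which share differences in depth, Sirt1 was most like Adk (r = 0.895) and Suz12 (r = 0.886). There the nearest genes were Map2k2 for Sirt7 (r = 0.867), Usp5 for Sirt6 (r = 0.851), Plppr3 for Sirt2 (r = 0.832), Herc1 for Sirt5 (r = 0.812), Tmub2 for Sirt4 (r = 0.805) and Flot1 for Sirt3 (r = 0.774). No sirtuin had the same nearest gene in both cell types. With 6069 or more genes ranked in each, a match would be rare in any case, so this shows no difference between them.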

How the data were processed

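The deposited data are 2 tables of raw counts, made by the authors, with 53619 gene symbols each. HISAT2 2.1.0, featureCounts, DESeq2 and mm10 appear in the submitters' processing notes without roles. The strand setting is not stated there. Libraries were Smart-seq2 with paired reads of 150 bp, per the labels' protocols. The labels disagree on the number of granulosa cells per pool, so none is given.

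Groups follow the sample titles. The genotype tag of 18 young wild-type oocytes contradicts their title, and 1 C57BL6 oocyte with contradicting labels entered no group. The header of 1 resveratrol C57BL6 oocyte gives its group but no clear replicate. Since no animal is named, granulosa p-values reflect only pool-to-pool spread, part of which may be technical. Oocyte groups have 1 sum each, so their p-values reflect departure from the additive model and not spread within a group.

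The test was that of edgeR 4.0.16 in R 4.3.3 (quasi-likelihood, TMM, filterByExpr with a minimum count of 10, Benjamini-Hochberg adjustment over all genes at 0.05), and "adjusted p" means this value unless a permutation is named. Granulosa cells had 1 mean for each of 6 groups, 12 residual degrees of freedom and 17558 genes. Oocytes of a group were summed. For the 10 sums, age, genotype and treatment were additive terms, leaving 5 residual degrees of freedom (4 with the interaction) for 20806 genes, so the spread is departure from additivity. C57BL6 sums have log2 ratios (0.5 counts added) with exact conditional Poisson 95% intervals and no test. Levels per kb use the union of exons in GENCODE vM21, to which 28471 symbols matched. The script was run on simulated data with 200 genes changed by 2 on the log2 scale. It recovered 97% of them in the resveratrol comparison of old wild-type granulosa pools. It recovered 81.5% in that of age in wild-type pools and 99.5% in that of resveratrol in oocyte sums. In the same order, 5 of 199, 11 of 174 and 22 of 221 called genes were false calls. Every sirtuin fold in the 15 tested comparisons was smaller than 2 in size, and recovery of such folds was not tested.

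Sirtuins and lists were chosen with earlier results of these data known. All 7 sirtuins are named, with up to 2 called members per list and comparison and the nearest genes by correlation. The share comparison between cell types, that without Sirt4 and the sums by header number, which left out 1 column, were added after the files were seen. Same-numbered granulosa pools did not deviate together (correlations of -0.187 to 0.186). Alternatives were other size factors, no filter, DESeq2 1.42.0, thinning, blocks and leaving out libraries. Thinning was 1 random draw to the lowest library total, 470647 counts in the granulosa pools.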

Additional observations from a re-analysis of the deposited data

How the results depend on the processing

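The count of called sirtuins was 0 in 215 of 218 alternative fits over the 15 tested comparisons. The exceptions were 1 called gene in each of 3 fits. Sums by the first number of the column header called 1 sirtuin at 6 over 2 months (Sirt7, log2 fold change -0.49, adjusted p = 0.0478) and 1 at 10 over 6 months (Sirt4, -0.36, adjusted p = 0.0113). Parts of 1 group entered that fit as separate units and may not be independent, so these p-values may be too small. Leaving out the third old labelled knockout control pool called 1 in the comparison with old wild-type controls (Sirt2, -1.01, adjusted p = 0.0311), so the count ranged from 0 to 1 over single pools left out. The cause was not tested.

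Single folds named in the report reversed in 4 of 391 alternatives. Sirt3 with resveratrol in oocyte sums ranged from -0.35 to 0.03 over single sums left out. Sirt1 with resveratrol in old pools labelled knockout ranged from -0.65 to 0.41 over single pools left out. It was 0.40 with libraries thinned to one total in 1 random draw. Sirt1 with the knockout label in old controls ranged from -0.06 to 0.95.

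Sod2 with resveratrol in old wild-type pools was also lost with RLE size factors (0.78, adjusted p = 0.0571), with thinning (0.69, adjusted p = 0.168) and with the replicate block (0.82, adjusted p = 0.0517). The block moved the number of all called genes in that comparison to 107, against 285 without it, and called 0 sirtuins in all 9 granulosa comparisons. Single C57BL6 oocytes left out moved the number of sirtuins past 1.5-fold between 1 and 3 with resveratrol (2 with all oocytes, and 1 without the oocyte of unclear header) and between 3 and 5 with age (3 with all oocytes). With Sirt4 left out of the family total, 4 of the 6 tested sirtuin shares passed between the cell types, against all 7 with the full total. Sirt5 and Sirt7 no longer passed, and the Sirt6 difference turned to 14.4 percentage points (-10.2 with all 7). The Sirt4 share of the oocyte sums was 58.9% with the longest transcript as length, against 61.6%. That of the granulosa pools was 13.9%, against 17.6%, and the order of the members in the pools depends on the length used. Comparisons with young wild-type pools could not be fitted without the pools under 1000000 counts, since all 3 are under it, and depth limits those values.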

Other observations

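One C57BL6 oocyte of 10 months had labels that contradict each other on treatment and entered no group. It had 8.15 CPM of Sirt1, 4.07 of Sirt2, 0.0 of Sirt3, 31.2 of Sirt4, 1.42 of Sirt5, 10.3 of Sirt6 and 7.79 of Sirt7, from 46, 23, 0, 176, 8, 58 and 44 counts. Its Sirt1 value lay within the range of the 10 resveratrol oocytes, 2.09 to 9.5 CPM, and below the range of the 6 controls, 8.47 to 12.3 CPM. Its Sirt4 value lay within both ranges, 23.6 to 35.7 CPM with resveratrol and 17.5 to 33.0 CPM in controls.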
